A study of Mus musculus with 24 samples.

Results

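mmu-miR-144, mmu-miR-451 and mmu-miR-486 (here named without the prefix) are miRNAs of the red cell lineage, and they were followed through 24 samples of a mouse model of triple-negative breast cancer. The members were taken by probe name, which gave 3 of the 618 probes on the panel. JygMC(A)-GFP/Luc cells are mouse mammary carcinoma cells that carry GFP and luciferase reporters. They were placed in the fat pad of a mammary gland of female Balb/C nude mice a few weeks old, a strain without a thymus and so with few T cells. Primary tumors were removed some weeks later, and the lungs of the same animals were taken after that, so that lung metastasis and primary tumor also differ in time. Tissue was collected by laser microdissection. The groups were carcinoma areas (n = 5) and EMT-like areas (n = 7) of the primary tumors (PT), lung metastasis (n = 4), normal mammary gland (NMG, n = 2), normal lung parenchyma (n = 2), monolayer cultures (n = 2) and 3D-spheres of the third generation (n = 2) of the same cells. NMG and normal lung carried the same strain label and were not recorded as injected, and no treatment was recorded for any group. Replicate 1 of carcinoma, EMT-like areas and lung metastasis each carry a label that names 3 animals, and several other samples share an animal. All cultures and tumors go back to this cell line.

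A miRNA is a short RNA that is loaded into an Argonaute protein and lowers the output of mRNAs that pair with its seed. miR-144 and miR-451 are made from a common transcript that GATA1 switches on in erythroid precursors, and they remain abundant in mature red cells. miR-451 is unusual because its hairpin is too short for Dicer and is cut by Ago2, so that the mature strand reaches into the loop. miR-486 lies within the ankyrin gene Ank1 and is abundant in red cells, but it is also made in striated muscle. In the RefSeq tables of build GRCm38.p6, Mir144 lies at chr11:78073005-78073070 and Mir451a at chr11:78073170-78073241, both on the plus strand, with 99 bases between them. Mir486 lies at chr8:23142555-23142682, within the span of Ank1. The probe named miR-451 was matched to Mir451a through its older name. The probe name miR-144 gives no arm and was read as the 3p arm, the arm long known by that name. The mature sequences are shown because they are what the probes capture, with the seed (bases 2 to 8) in capitals. None of the other mature entries among the 1679 in the table holds either seed.
miR-144-3p: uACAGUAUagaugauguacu
miR-451a: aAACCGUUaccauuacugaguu
The hairpins are shown because the members of this pair differ in how they are cut, with the mature strand in capitals. The mature strand takes bases 43 to 62 of the 66 in Mir144, and bases 17 to 38 of the 72 in Mir451a.
Mir144: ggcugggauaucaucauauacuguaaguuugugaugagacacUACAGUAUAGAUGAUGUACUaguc
Mir451a: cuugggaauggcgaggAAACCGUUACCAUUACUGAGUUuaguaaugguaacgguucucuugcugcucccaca

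Each lane of the nCounter assay counted colour barcodes, and the deposited values are those counts less the mean of 6 negative controls in the lane, without scaling between lanes. The detection limit, set at that mean plus 2 SD, lay between 4 and 21.4 counts. The summed mouse miRNA values ran from 24418 to 44953 in cultures, from 61497 to 183539 in tumors and from 525225 to 2334955 in normal tissue. Values were therefore scaled by trimmed mean of M-values factors (0.404 to 5.63), and these are called normalized values. Groups were compared with limma on log2(normalized value + 1) over 583 probes. Fold changes of low values on this scale depend on the floor at 0 and on the added 1. The limma p-values set each difference against a spread estimated jointly over all 7 groups of these samples, to which a group of 2 adds little. A miRNA was called at a Benjamini-Hochberg adjusted p under 0.05.

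All members were most abundant in normal lung, followed by NMG, and were far lower in tumors. The deposited values of miR-451 were 67618 and 260274 in normal lung and 18140 and 19937 in NMG. Although the lanes of normal lung differed in their totals, miR-451 made up 11.5% and 11.1% of the summed mouse miRNA values in them, against 3.24% and 3.8% in NMG. Both normal lungs lay above both glands, as they did for 32.4% of all probes. After scaling, normal lung held 44040 ± 3046 (SD, n = 2) and NMG 7438 ± 52.2 (SD, n = 2), a log2 difference of 2.56 (SE 0.48, limma adjusted p = 0.000591). In this comparison 10.1% of all probes were called higher in lung, and 2 of the 3 members were among them. miR-486 had deposited values of 1947 and 4154 in lung and of 358 and 362 in NMG, a log2 difference of 2.73 after scaling (SE 0.70, adjusted p = 0.00990). miR-144 had deposited values of 9733 and 51071 in lung and of 1203 and 2621 in NMG, and its log2 difference of 3.41 (SE 1.22, adjusted p = 0.0676) did not pass. The calls of miR-451 and miR-486 were lost with the animal as a fixed block (adjusted p = 0.117 and 0.110), a setting that called 0 of 583 probes. That of miR-486 was also lost without normal lung replicate 1 (0.0610), NMG replicate 1 (0.0553) or NMG replicate 2 (0.0674), with scaling by the total (0.141) or the most abundant miRNAs (0.126), and with the detection limit subtracted (0.257).

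The cultures, which hold no blood, gave no member above its detection limit. For miR-451 the deposited values were -7 and 0 for the monolayer and -9 for both 3D-spheres, all under the limits of 11.1 to 21.4 counts. Those of miR-144 were -7 and -11 in the monolayer, with -6 and -10 in the 3D-spheres. Monolayer cultures gave 9 and 6 counts of miR-486, and 3D-spheres 0 and 2. The culture values of miR-144 and miR-451 lay at or below the mean of the negative controls in every lane, whereas those of miR-486 lay at or above it. Expression of the members in JygMC(A) cells was thus not detectable at this depth, which was the lowest of the series. Between 3D-spheres and the monolayer, 1.72% of probes were called lower and miR-486 was among them (limma adjusted p = 0.0351). All 4 values lay under the limit, so no fold is given, and the call was lost without either monolayer replicate (0.119 without replicate 1, 0.0679 without replicate 2) or without 3D-spheres replicate 1 (0.485). The endothelial miRNAs miR-126-3p and miR-126-5p were at 0 in all 4 cultures, and the neutrophil miRNA miR-223 was under the limit in all 4.

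In PT, miR-451 was above the detection limit in 12 of 12 samples. Its deposited values in carcinoma replicates 1 to 5 were 120, 135, 104, 62 and 147. In EMT-like areas the lowest was 90, the median 179 and the highest 262. All 12 lay above every culture, and the difference was called (limma adjusted p = 3.09e-15), miR-451 being at least 3.98-fold lower in cultures when these are set at their limits. Of all probes, 21.8% were called lower in cultures, and 11.8% lay lower without overlap. miR-486 was above the limit in 10 of 12 PT samples and was called lower in cultures (normalized 7.79 ± 6.50, n = 4, against 23.3 ± 9.25, n = 12, log2 difference -1.87, SE 0.40, adjusted p = 0.000909). Its groups overlapped, and the call was lost when lanes were scaled by their total (0.0586) or by the most abundant miRNAs (0.734). miR-144 was above the limit only in EMT-like replicate 2 among PT samples, and no difference from cultures was called (adjusted p = 0.163).

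**Figure D1:**
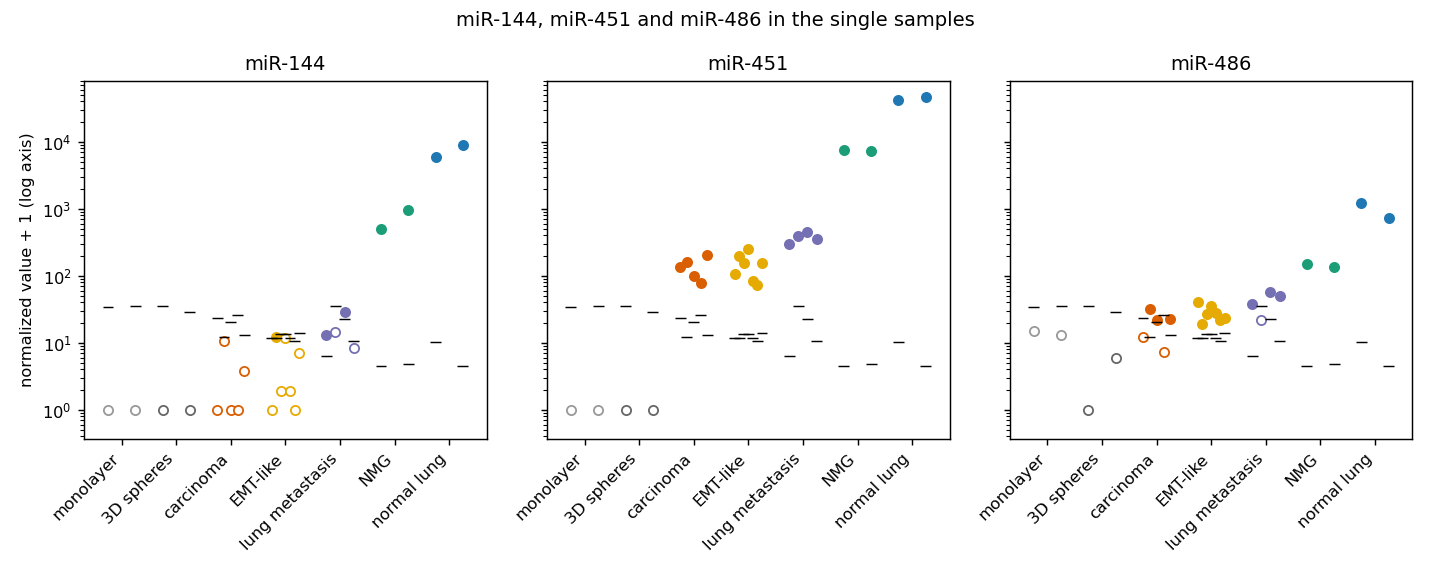
Normalized value + 1 on a log axis for each member, with a point for each sample in the 7 groups. Filled points lie above the detection limit of their lane, open points under it, and the short black lines mark that limit on the same scale. miR-451 is above the limit in all 20 tissue samples and in none of the 4 cultures, and normal lung and NMG lie above all tumors for every member.

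Against NMG, all members were called lower in both areas of the primary tumor. The level of miR-451 was 134 ± 48.6 (SD, n = 5) in carcinoma against 7438 ± 52.2 (SD, n = 2) in NMG, a log2 difference of -5.86 (SE 0.40, limma adjusted p = 4.69e-10). This corresponds to a 58.2-fold lower level (95% interval 32.6 to 104). Of all probes, 23.8% were called lower in carcinoma, and miR-451 had the second smallest adjusted p among the 583. miR-144 was under the limit in all 5 carcinoma samples, where its deposited values were -2, 8, -4, -2 and 2. This made it at least 38.3-fold lower than in NMG (adjusted p = 2.03e-06). miR-486 had deposited values of 10, 26, 22, 5 and 16 in carcinoma, 3 of them above the limit. Its log2 difference of -3.07 (SE 0.58, adjusted p = 0.000340) was an 8.37-fold lower level (95% interval 3.61 to 19.4). Every carcinoma sample lay below both NMG samples for each member, which held for 31% of all probes. In microdissected tissue of this kind, fewer red cells in the captured areas and less of a miRNA per red cell cannot be told apart.

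In EMT-like areas, 20.2% of all probes were called lower than in NMG. miR-451 was at 146 ± 64.8 (SD, n = 7), a log2 difference of -5.79 (SE 0.38, adjusted p = 2.64e-10). miR-144 had deposited values from -3 to 11 with a median of 1, and 1 of the 7 samples was above its limit. It was called lower (adjusted p = 4.11e-06), but with the other 6 under the limit its fitted log2 difference depends on the added constant (-7.76 with 1 added, -5.71 with 10 added). miR-486 was above the limit in 7 of 7 samples. Its lowest deposited value was 18, the median 30 and the highest 41, a log2 difference of -2.39 after scaling (SE 0.56, adjusted p = 0.00273). That call was lost with scaling by the most abundant miRNAs (adjusted p = 0.0675). Both comparisons share the NMG samples. No EMT-like sample reached an NMG sample for any member, as for 25.2% of all probes.

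Between carcinoma and EMT-like areas, none of the members was called. The log2 difference of miR-451 was -0.07 (SE 0.28, adjusted p = 1), a 1.05-fold lower level in carcinoma with a 95% interval of 0.702 to 1.58. miR-486 was lower in carcinoma by 0.68 on the log2 scale (SE 0.41, adjusted p = 0.478) and miR-144 by 0.62 (SE 0.72, adjusted p = 0.747). By limma, 1 of the 583 probes was called here, 0.172%. Within animals, miR-451 was lower in carcinoma with 3 of 4 shared labels, and miR-486 likewise with 3 of 4. The groups overlapped for every member.

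Against normal lung, all members were called lower in lung metastasis, where 42.2% of all probes were. The deposited values of miR-451 in lung metastasis replicates 1 to 4 were 227, 204, 349 and 239. The normalized level of 371 ± 63.2 (SD, n = 4) lay 6.90 below normal lung on the log2 scale (SE 0.42, limma adjusted p = 1.09e-11), a 120-fold difference (95% interval 65.7 to 218). For miR-144 the deposited values were 9, 7, 22 and 5, of which replicates 1 and 3 were above their limits, and the log2 difference was -8.99 with 1 added and -8.26 with 10 added (adjusted p = 4.87e-07 for the former). For miR-486 they were 28, 11, 44 and 33, with 3 of 4 above the limit, and the log2 difference was -4.59 (SE 0.60, adjusted p = 2.16e-06). Every lung metastasis lay below both normal lungs for each member, as for 37.9% of all probes.

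As a percentage of the host tissue, the measured level in tumors was highest for miR-486. Relative to the NMG mean, PT held 0.472% of the miR-144 level, 1.90% of the miR-451 level and 16.5% of the miR-486 level. Relative to the normal lung mean, lung metastasis held 0.201%, 0.843% and 4.18% of them. The cultures, all under the limit for miR-486, averaged a normalized 7.79 for it, against 23.3 in PT. The part of probe background in the miR-486 percentages was not tested. The miR-144 values lay under the detection limit in 11 of 12 PT samples, and with the background taken from the cultures the ratio of miR-144 to miR-451 in PT overlapped that in NMG, so that these values do not rank miR-144 against miR-451 in PT. Several miRNAs of other cells of the tissue were also lower. Of the 5 leukocyte miRNAs listed, 3 were called lower in each of carcinoma, EMT-like areas and lung metastasis than in their host tissue. Of all probes, 23.8%, 20.2% and 42.2% were called lower in these comparisons. miR-155 was called higher in all of these, and miR-142-5p in carcinoma (adjusted p = 0.0212) and in lung metastasis (0.00387), and both were above the limit in all 4 cultures. Both endothelial miRNAs listed were called lower in all of these. miR-142-3p, a miRNA of all blood leukocytes that was under the limit in all 4 cultures, was at 7.53% of NMG in PT and at 6.24% of normal lung in lung metastasis. miR-126-3p of the endothelium was at 13.7% and 3.36%, and miR-150 of mature lymphocytes at 2.97% and 21.6%. The part that a loss of vessels and leukocytes had in the lower level of the members was not tested.

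**Figure D2:**
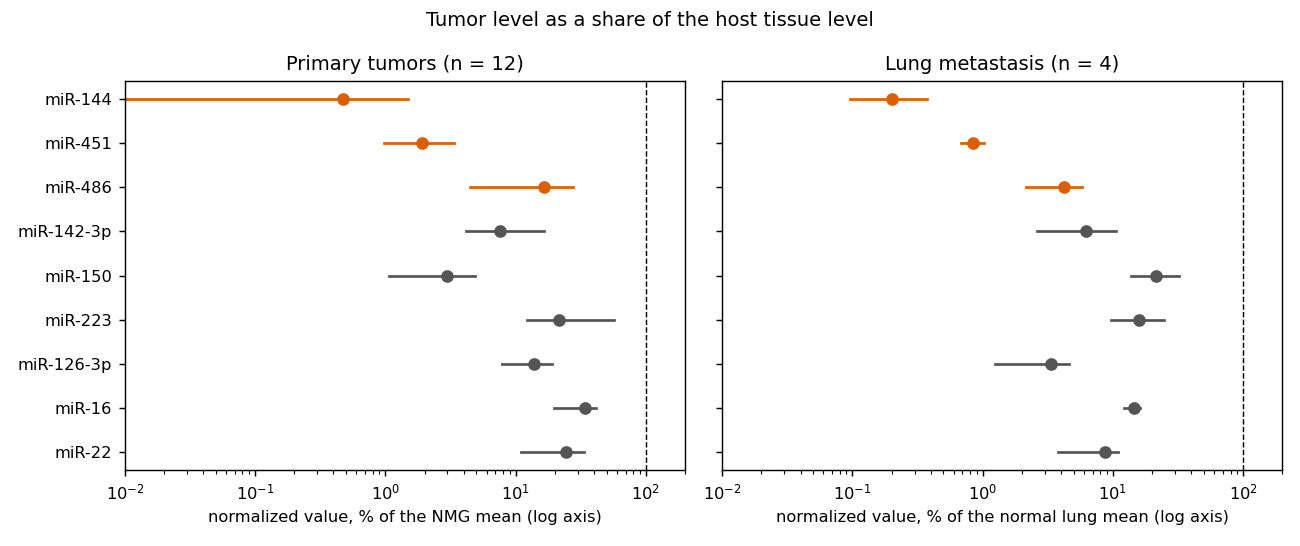
Normalized value of the members (orange) and of other miRNAs (grey) in tumors as a percentage of the host tissue mean, on a log axis, with PT against NMG on the left and lung metastasis against normal lung on the right. Points mark group means and lines run from the lowest to the highest sample, and a line that meets the left edge includes values at 0. miR-451 lies at 1.90% in PT and at 0.843% in lung metastasis, and the dashed line marks the host level.

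Whether the gap between tumor and host differed between the lung and the mammary gland was tested as a difference of differences. For miR-451 it was -1.08 on the log2 scale (SE 0.56, limma adjusted p = 0.235), for miR-144 -0.92 (SE 1.41, adjusted p = 0.789) and for miR-486 -1.86 (SE 0.81, adjusted p = 0.157). None of the members passed, in a test that called 10.5% of probes lower and 0.686% higher. For comparison, miR-126-3p had a value of -2.15 (SE 0.52, adjusted p = 0.00763) and miR-150 one of 2.64 (SE 0.70, adjusted p = 0.0145), the former with a wider gap in the lung and the latter with a narrower one.

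miR-451 was higher in lung metastasis than in PT. Its normalized level was 371 ± 63.2 (SD, n = 4) against 141 ± 56.5 (SD, n = 12), a 2.80-fold difference (95% interval 1.88 to 4.19, limma adjusted p = 0.00217). The lowest metastasis was at 299 and the highest PT sample at 252, so the groups did not overlap after scaling. The deposited values did overlap, with the lowest metastasis at 204 and the highest PT sample at 262. Only 0.515% of all probes were called higher, and the same share lay higher without overlap. With each of the 4 shared animal labels, the normalized level of the metastasis was above that of the primary tumor, by 1.73-fold in animal 6517, 2.22-fold in animal 6520, 2.49-fold with the label that names 3 animals and 6.15-fold in animal 6519. In deposited values, animal 6517 showed no rise (204 in the metastasis, 204.5 in the primary tumor), whereas the other labels did. Among animals with lettered labels the log2 difference was 1.14 (1 metastasis, 5 PT samples), and among those with numbered labels 1.61 (3 metastases, 7 PT samples). The call was lost without scaling (adjusted p = 0.0980), with scaling by mRNA control probes (0.172) and with the animal as a fixed block (0.0999). The fixed block called 4 of 583 probes.

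**Figure D3:**
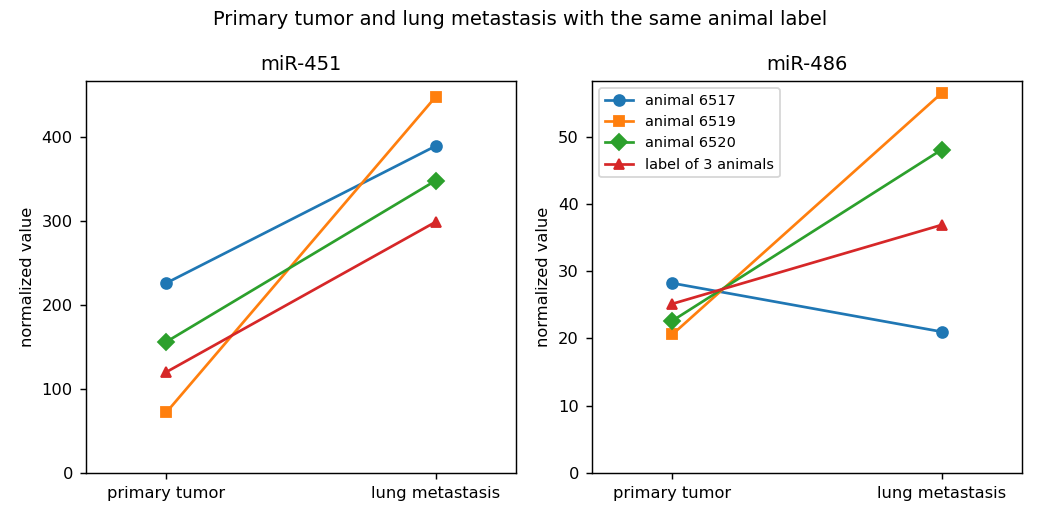
Normalized values of miR-451 and miR-486 in the primary tumor (areas averaged) and the lung metastasis with the same animal label, with a line for each of the 4 labels and both axes starting at 0. miR-451 is higher in the metastasis with all 4 labels, and miR-486 with 3 of 4.

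The other members did not pass between lung metastasis and PT. For miR-486 the level was 40.6 ± 15.3 (SD, n = 4) against 23.3 ± 9.25 (SD, n = 12), a 1.83-fold difference (95% interval 1.02 to 3.27, adjusted p = 0.312), and the groups overlapped. For miR-144 it was 15.2 ± 9.08 against 3.47 ± 4.51, a log2 difference of 2.49 (SE 0.71, adjusted p = 0.0623). Without carcinoma replicate 2, EMT-like replicate 2 or EMT-like replicate 4, the adjusted p of miR-144 was 0.0161, 0.0341 or 0.0447. In the same comparison, the lymphocyte miRNA miR-150 had a log2 difference of 2.65 (SE 0.35, adjusted p = 5.33e-05). That of miR-142-3p was 0.56 (SE 0.41, adjusted p = 0.684) and that of miR-126-3p 0.15 (SE 0.26, adjusted p = 0.986). Of the 5 leukocyte miRNAs listed, 1 was called higher, and of the 8 other red cell miRNAs listed, none. The summed level of the leukocyte list ran from 870 to 1634 in lung metastasis and from 572 to 1243 in PT. It ran from 764 to 1130 in the cultures, which hold no leukocytes, with miR-155 at a mean of 827 there, so the sum does not measure leukocyte content. The part of lymphocytes or other leukocytes in the difference of miR-451 was not tested.

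The ratio of 2 miRNAs within a lane does not depend on the scaling between lanes, and it was compared on deposited values floored at 0, with 1 added to both. At low counts it does depend on the background, the floor and the added 1, and tumor lanes had lower totals than those of the host tissues. In the host tissues miR-486 was at 1.82% and 1.98% of miR-451 in NMG and at 1.60% and 2.88% in normal lung. In PT the lowest ratio was 9.09%, the median 16.0% and the highest 37.2%. Every PT sample lay above both glands, by 8.92-fold on average, which is the smallest p the design allows (exact two-sided permutation test, p = 0.0110 over 91 splits, adjusted p = 0.0330 over 6 tests). The 12 PT samples come from 8 animal labels. With areas averaged per label, 45 splits allow no exact p under 0.0222, which both this ratio and that of miR-144 reached, and the adjusted p of 0.0666 no longer passed. Lung metastasis ran from 5.85% to 14.2%, with every sample above both normal lungs by 5.03-fold on average. Here too the exact p of 0.0667 (adjusted 0.1) was the smallest possible. The log2 difference between lung metastasis and PT was -0.65 (exact p = 0.129, adjusted 0.129). Ratios in cultures are not given because all values were under the limit.

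In counts, miR-486 in tumors lay a small way above the value at the host ratio. At the NMG ratio, the miR-451 values of the carcinoma samples would go with 0.196 to 1.81 counts of miR-486, and the measured values were 5 to 26. For EMT-like areas this reference was 0.727 to 3.99 counts, and 18 to 41 were measured. For lung metastasis at the normal lung ratio it was 3.40 to 6.51 counts, and 11 to 44 were measured. The measured value was above the reference in 5 of 5, 7 of 7 and 4 of 4 samples, and 13 of these 16 values were above the detection limit. No reference reached the detection limit of its lane. A probe background of a few counts would exceed most of the references, so that these counts of samples are not a test. The culture values of miR-486, 0 to 9 counts, reach into the lower end of the carcinoma values. With the background of each probe taken as its mean in the 4 cultures, which was chosen after seeing the data, the ratio in PT had a median of 13.4% (range 2.53% to 31.7%), still above both glands. Its exact p was again 0.0110. With the detection limit of each lane subtracted, the log2 difference of 3.16 became 1.85 (exact p = 0.143).

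The ratio of miR-144 to miR-451 depended on the background. In NMG it was 6.64% and 13.2%, and in normal lung 14.4% and 19.6%. In PT the median was 1.79% (range 0.826% to 6.62%), below both glands although the highest PT value came close to the lower gland, and the exact p was 0.0110 (adjusted 0.0330). However, 11 of the 12 PT values of miR-144 lay under the detection limit. In cultures this probe read 8.50 counts below the mean of the negative controls on average, more than a typical PT value lies above it. With the culture mean as background, the PT median was 7.79% (range 4.94% to 12.3%), overlapping NMG, and the log2 difference of -2.21 became -0.25 (exact p = 0.473). For lung metastasis, the ratio was 2.50% to 6.57% with the deposited background and 5.89% to 8.84% with the culture background, below both normal lungs in each case (exact p = 0.0667, the smallest possible). At the normal lung ratio, the miR-451 values of lung metastasis would go with 33.5 to 57.8 counts of miR-144, and 5 to 22 were measured.

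**Figure D4:**
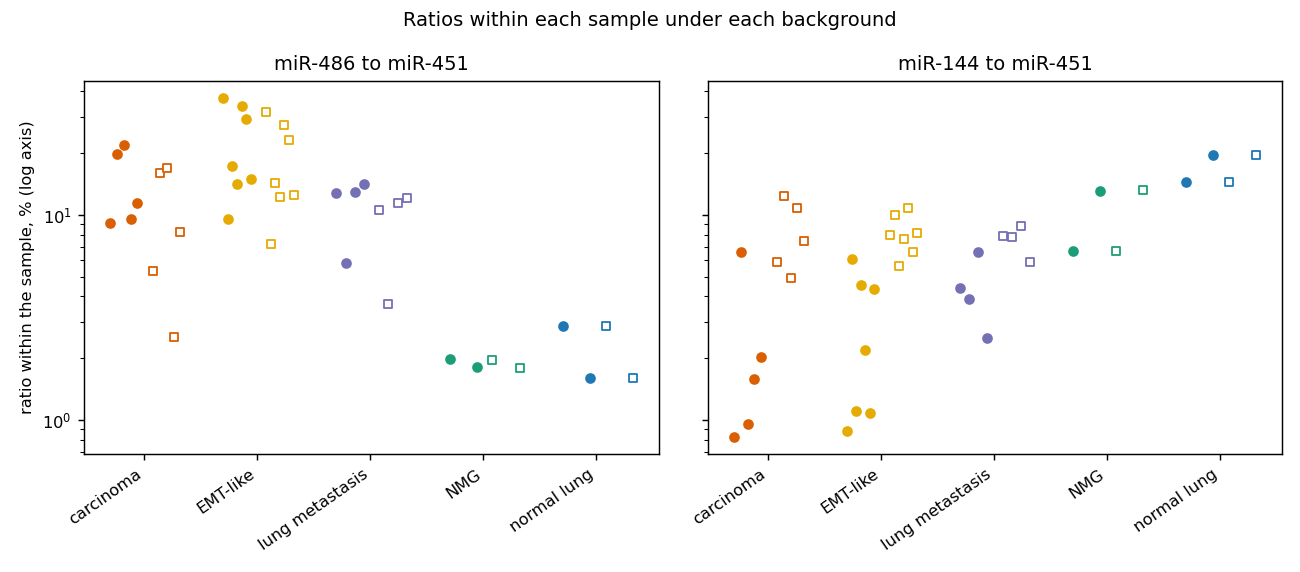
Ratio within each sample of miR-486 (left) and miR-144 (right) to miR-451, as a percentage on a log axis. Filled circles use the deposited background, and open squares take the background of each probe from the 4 cultures. The miR-486 ratio of all tumors except the lowest carcinoma square lies above all 4 host tissue samples under either background, whereas the miR-144 ratio of PT has a median of 1.79% with the deposited background and of 7.79% with that of the cultures, against 6.64% and 13.2% in NMG with the former.

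Across the 8 animal labels with PT samples, areas averaged, 3 relations of miR-451 were computed on log2 normalized values. With miR-142-3p, Pearson's r was 0.818 (exact permutation p = 0.0109, adjusted 0.0327) and Spearman's rho 0.667 (p = 0.0831, adjusted 0.249). Without the 2 animals farthest from the median of miR-451 (6517 and 6519), r was 0.709. Without scaling between lanes r was 0.778 and no longer passed (exact p = 0.0272, adjusted 0.0816). On unscaled values the 2 farthest animals were 6517 and 6520, and r without them was 0.185. With miR-486, r on normalized values was 0.289 (exact p = 0.514, adjusted 0.771) and rho 0.500 (p = 0.216), and r was 0.014 without animals 6517 and 6519. With miR-126-3p, r was -0.111 (exact p = 0.793). Animals 6517 and 6519 had the highest and lowest miR-451, at 7.82 and 6.19 on the log2 scale. Labels with letters (3) and numbers (5) each hold fewer than 6 animals, so that no value is given within them.

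**Figure D5:**
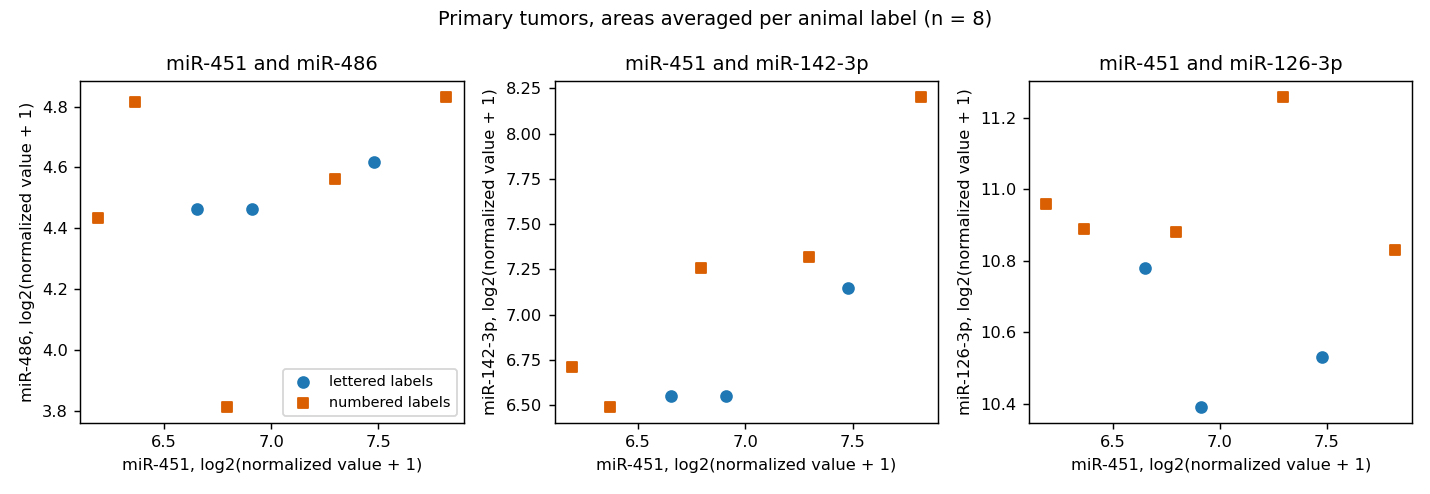
log2(normalized value + 1) of miR-451 on the horizontal axis against miR-486, miR-142-3p and miR-126-3p on the vertical axes, with a point for each of the 8 animal labels and symbols for lettered and numbered labels. The points of miR-142-3p rise with miR-451 (r = 0.818), and those of miR-486 (r = 0.289) and miR-126-3p (r = -0.111) show no such order.

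Other miRNAs that are abundant in red cells differed less from the host tissues than the members did, and most of them are also made by other cells. Of the 8 listed, 2 were called lower and 1 higher in carcinoma against NMG, 3 lower in EMT-like areas against NMG and 6 lower in lung metastasis against normal lung. Over all probes, 23.8%, 20.2% and 42.2% were called lower in these comparisons, so that the 2 of 8 in carcinoma are close to that share. Their median log2 differences were -0.87, -1.10 and -2.11, against -0.68, -0.30 and -0.90 over all probes. miR-16, a miRNA of most tissues, was at 33.9% of NMG in PT and at 14.4% of normal lung in lung metastasis, and it was above the limit in all 4 cultures. miR-22 was at 24.4% and 8.72%. miR-25 did not pass in any of these comparisons. miR-92a was under the limit in all samples except the normal lungs. It was 1 of 2 listed miRNAs under the limit in all samples of carcinoma, EMT-like areas and NMG. Both are included in the counts and medians above.

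Over the means of the 7 groups, among 341 probes above the limit throughout at least 1 group, the pattern of miR-451 was most like those of miR-126-5p, miR-126-3p and miR-199a-5p. Their root mean square differences after centring were 1.15, 1.53 and 1.99 on the log2 scale. For miR-144 the nearest were miR-1 (1.29), miR-218 (1.81) and miR-326 (2.15). For miR-486 they were miR-194 (0.698), miR-29c (0.739) and miR-326 (0.839). miR-1 is a miRNA of striated muscle, where miR-486 is also made, and its normalized values were 432 in NMG, 916 in normal lung, 0.424 in PT and 0.658 in lung metastasis. No tumor sample was above the limit for miR-1. The summed normalized level of the 4 muscle miRNAs listed was 1027 in NMG replicate 1 and 44.6 in replicate 2, whereas that of miR-486 was 147.5 and 134. In normal lung the muscle sum was 585 and 1724, and miR-486 was at 1206 and 737. The part of muscle in the levels of miR-486 was not tested. The muscle miRNA miR-206 averaged 22.5 in PT and 83.7 in cultures, which were above the limit in 4 of 4, and miR-133a was above it in 4 of 12 PT samples.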

How the data were processed

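miRNA expression was measured with the nCounter Mouse miRNA assay in 24 samples. The deposited values are background-subtracted counts (unit: other). They are whole numbers, and in every lane the 6 negative controls average close to 0, so that the authors had subtracted the lane's background. No scaling between lanes was found. The labels name Partek with no role. Since these are not raw counts, the planned replacement for a count model was used. Values floored at 0 were scaled by TMM factors (trims of 30% and 5%), and log2(value + 1) was fitted with limma 3.58.1 (R 4.3.3, trend, 7 groups, animal label as a random block, within-animal correlation -0.00296). Benjamini-Hochberg adjustment covered 583 probes with a value above 0. Bounds set the lower group at its detection limit. Ratios and relations were tested by exact permutation in Python 3.11.15 with numpy 2.4.6 and scipy 1.17.1. Procedures were tested on simulated data. The text names the members, up to 4 miRNAs of each marker list and the 3 most similar probes of each member. From the leukocyte list, miR-155 was named beyond these 4. miR-206 and miR-150 were named for their values. Members and lists were chosen with earlier results of these data known. Groups with 2 samples limit every comparison with a host tissue.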

Additional observations from a re-analysis of the deposited data

Results flagged for a closer look

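In carcinoma, miR-144 of replicate 2 stood apart from the other 4 samples with a normalized value of 9.45, its distance to the nearest being 0.712 of the range, just above the critical 0.710. The deposited value of 8 lay under the detection limit of that lane, 9.38 counts. Of 9 groups checked, this was the only one. Chance flags about 1 in 20 among normally distributed values, a rate that does not apply here because negative values were floored at 0.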

How the results depend on the processing

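Values here are adjusted p unless named otherwise. Of 271 recomputations under other settings, 238 kept their side of the threshold, 21 lost the call and 12 gained it. Leaving out a sample gave 333, 10 and 3, and the lone sample left in a group of 2 is then assumed to vary like the other groups. None reversed a called result. The calls of miR-144 and miR-451 in carcinoma and EMT-like areas against NMG and in lung metastasis against normal lung held in all. Scaling by the miRNA total moved the median of all probes by up to 0.74 (log2) and scaling by mRNA controls by up to 1.76. The cause of the following changes was not tested. For miR-486, EMT-like areas against NMG gave 0.0675 with scaling by the most abundant miRNAs. Normal lung against NMG gave 0.141 with the total, 0.126 with the most abundant miRNAs, 0.257 with the higher background (detection limit subtracted) and 0.110 with the animal as a fixed replicate block, and 0.0214 to 0.0674 with a sample left out. Cultures against PT gave 0.0586 with the total and 0.734 with the most abundant miRNAs. 3D-spheres against the monolayer gave 0.110 without scaling, 0.465 with mRNA controls, 0.283 with a pseudocount of 10, and 1 with the higher background, the groups alone or the culture number as a replicate block, and 0.00306 to 0.485 with a sample left out. For miR-144, normal lung against NMG gave 0.0360 without scaling, 0.00606 with mRNA controls, 0.00167 with the higher background, 8.97e-06 with a pseudocount of 10 and 0.0378 with the groups alone, where the within-animal correlation could not be estimated. Lung metastasis against PT gave 0.0268 with a filter of 20 in 2 samples and 0.0161 to 0.224 with a sample left out. For miR-451, the animal as a fixed replicate block gave 0.117 for normal lung against NMG and 0.0999 for lung metastasis against PT, and the latter gave 0.0980 without scaling and 0.172 with mRNA controls. Without any block, no call changed. The difference of differences gave 0.00197 for miR-144 and 0.00446 for miR-486 with a pseudocount of 10, 0.0345 for miR-451 and 0.00617 for miR-486 with mRNA controls, and 0.0281 for miR-486 without scaling. Exact p-values of ratios were 0.143 for miR-486 in PT against NMG with the higher background, 0.0379 for miR-486 in lung metastasis against PT with a pseudocount of 10, and, for miR-144 in PT against NMG, 0.868 with that pseudocount and 0.473 with the culture background. With a sample left out, both ratios gave 0.0128 to 0.0769 in PT against NMG, and without either gland 0.0769 is the smallest possible. Depth limits miR-144 most, since 13 of its 16 tumor values lay under the detection limit. The correlation of miR-451 with miR-142-3p was 0.778 without scaling, where it no longer passed (adjusted p = 0.0816).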
